A study of Mus musculus with 18 samples.

Results

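The genes described here are 38 macrophage marker and polarization genes, chosen by gene symbol from the 53801 genes listed for mouse pancreatic islets. The list was drawn up with earlier results of these data known. Shares of it set against all genes below are therefore descriptive. They were measured in bulk RNA of isolated whole islets from mice 5 weeks old on normal chow. Mice heterozygous for the S64F allele of MafA, a beta-cell transcription factor, were set against wild-type (WT) mice of the same sex. The MafA-S64F heterozygotes are called S64FHET in the sample titles and are written S64F/+ below. The groups were male S64F/+ (4 libraries), male WT (4), female S64F/+ (5) and female WT (5). The labels give no strain, do not say whether a library came from 1 mouse or from pooled mice, and do not say that the replicates were separate animals. The p-values below therefore measure the spread between these libraries, which may be technical in part.

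Macrophages are phagocytes that live in most tissues, survive on signals through the CSF1 receptor and depend on the transcription factor PU.1. Mouse islets hold a resident population, which sits close to beta cells and vessels and is known for F4/80, CD11c, class II antigen presentation and the fractalkine receptor CX3CR1. The cytokines IL-4 and IL-13 act through STAT6 and induce a programme often called alternative activation, with Arg1, Mrc1, Clec10a and Pdcd1lg2 among its usual genes in mice. Interferon-gamma and microbial products induce classical activation, with Nos2, Cd86 and Cd80 among its usual genes. The 38 genes span both programmes, as well as pan-leukocyte, Fc receptor, scavenger and lipid-handling genes.

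Libraries held 19317971 to 108659014 counts assigned to genes, with a median of 42367780. The 38 genes together took 0.0113 to 0.0365% of a library's counts, so all of them were minor transcripts of the islet. Values by library are given as CPM (the count relative to the library's total), with totals scaled by the TMM method (a trimmed mean of log ratios), always in the order of the replicate numbers. Genotype and sex differences in CPM were taken within a gene. Sums and ratios of CPM over several genes, given further below, are not corrected for gene length. Exons of Coro1a, Lcp1, Csf1r, Cx3cr1, Fcgr2b, Ncf1 and Folr2 overlap exons of another gene on the opposite strand (GENCODE M21), and whether the counting used strand was not given in the labels or notes, so those counts are uncertain to that extent. Enough counts for a test were found for 37 of the 38 genes. The other one, Cd80, had 0 to 10 counts in a library. Per length, in the deposited FPKM (fragments per kilobase of gene, scaled to depth), the highest mean over the 18 libraries was that of Arg1 (17.8 FPKM), ahead of Lyz2 (8.16 FPKM) and Mpeg1 (4.93 FPKM). Csf1r and Cd68 averaged 2.08 and 2.06 FPKM, and Gpnmb was lowest at 0.0255 FPKM. The defining macrophage markers were therefore present in every group, at low levels.

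A pair of the female S64F/+ libraries stood apart from the other female S64F/+ libraries in these genes. Replicate 1 was the highest of its group for 22 of the 38 genes and the lowest for 0 of them. Replicate 5 was the lowest of its group for 26 and the highest for 0. Among female WT libraries, replicate 1 was the lowest for 26. Where a female genotype call depends on one of these S64F/+ libraries, the value without it is given with the gene.

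Promoters of 5 of the genes are shown because they cover the range of the male results below: Fcgr2b, Mrc1 and Pdcd1lg2 showed some of the largest male differences, Cd68 is a general macrophage marker that rose, and Cx3cr1 is one that did not. Each sequence is the 250 bases before the RefSeq transcript start (build GRCm38.p6), on the gene's own strand. Capitals mark matches, on either strand, to the PU.1 core GAGGAA or to the STAT6 motif, TTC and GAA with any 4 bases between them.
Fcgr2b, chr1:170976072-170976321, minus strand: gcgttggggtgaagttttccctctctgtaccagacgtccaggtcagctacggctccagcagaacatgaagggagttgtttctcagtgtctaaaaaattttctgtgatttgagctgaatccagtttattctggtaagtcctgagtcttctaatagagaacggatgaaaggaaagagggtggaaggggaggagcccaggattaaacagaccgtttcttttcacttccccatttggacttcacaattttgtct
Mrc1, chr2:14229164-14229413, plus strand: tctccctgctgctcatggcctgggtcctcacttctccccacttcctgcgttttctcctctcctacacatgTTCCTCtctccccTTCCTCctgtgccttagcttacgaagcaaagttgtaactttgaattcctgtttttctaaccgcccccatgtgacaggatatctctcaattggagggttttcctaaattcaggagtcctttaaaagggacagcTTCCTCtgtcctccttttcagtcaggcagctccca
Pdcd1lg2, chr19:29410669-29410918, plus strand: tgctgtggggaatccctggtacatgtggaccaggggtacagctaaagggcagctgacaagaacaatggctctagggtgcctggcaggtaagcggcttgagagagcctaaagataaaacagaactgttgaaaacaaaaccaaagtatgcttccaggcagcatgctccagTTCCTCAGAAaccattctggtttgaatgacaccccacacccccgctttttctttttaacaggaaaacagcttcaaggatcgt
Cd68, chr11:69666171-69666420, minus strand: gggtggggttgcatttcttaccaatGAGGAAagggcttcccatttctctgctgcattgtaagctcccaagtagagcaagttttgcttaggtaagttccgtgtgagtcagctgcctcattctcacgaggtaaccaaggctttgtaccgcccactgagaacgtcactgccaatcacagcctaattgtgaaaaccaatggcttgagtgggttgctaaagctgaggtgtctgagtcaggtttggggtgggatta
Cx3cr1, chr9:120068297-120068546, minus strand: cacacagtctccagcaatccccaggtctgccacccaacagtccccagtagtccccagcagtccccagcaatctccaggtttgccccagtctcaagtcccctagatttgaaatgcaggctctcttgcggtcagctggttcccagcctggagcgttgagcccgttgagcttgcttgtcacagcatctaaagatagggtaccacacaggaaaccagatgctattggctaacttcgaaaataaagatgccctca
The Mrc1 stretch held 3 PU.1 matches and the Cd68 stretch held 1. The Pdcd1lg2 stretch held 1 STAT6 match, and 1 PU.1 match lay inside it. Neither the Fcgr2b nor the Cx3cr1 stretch held a match. The stretch of Cd163, examined but not printed, held 0 matches, and Cd163 had a male log2 fold change of 2.74. Over windows from 250 bases before to 50 bases after the start, 15 of the 36 promoters listed for 29 of the genes held GAGGAA (41.7%), against 28.3% of all 32817 promoters. The STAT6 motif stood in 4 of the 36 (11.1%), against 6.94% of all promoters. The half-site TGCTGA, bound by MAF factors, stood in 10 of the 36 (27.8%), against 19.5% of all. A match in a window describes its letters and is no evidence of binding.

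In males, most of the macrophage genes were higher in S64F/+ islets. In edgeR's quasi-likelihood test with Benjamini-Hochberg adjustment (adjusted p below 0.05, two-sided), 27 of the 37 tested genes rose and 0 fell. Over all 18364 genes tested, 15.4% rose and 12.3% fell (27.6% in either direction). The median log2 fold change was 1.32 for the 37 genes and -0.03 for all genes. Some of the 27, named below, passed the filter on low counts only through male S64F/+ libraries, where they were high. Without that filter 27 of the 38 rose, with a median of 1.28. For 30 of the 37, every S64F/+ library was above every WT library, as it was for 17.8% of all genes. TMM scaling gave 2819 higher and 2252 lower calls over all genes. Plain library-size scaling, which moves the median of all genes to 0.19, gave 4248 and 666, with 28 of the 37 genes higher and a median of 1.56. The increase was uneven: the Fc receptor Fcgr2b and several alternative activation genes had folds well above those of the general markers, while Cx3cr1, Fcer1g, Fcgr1 and the oxidase genes did not pass the test. In bulk RNA, more macrophages, more RNA per macrophage and RNA of other cells that express some of these genes cannot be told apart. Summed markers of dendritic cells, vascular endothelium, and stellate cells and fibroblasts were also higher in male S64F/+ libraries, as given below. Their part was not tested.

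In females, 18 of the 37 rose in S64F/+ islets and 0 fell, against 10.2% of all genes that rose and 11.0% that fell (21.2% in either direction). The median log2 fold change was 0.81 for the 37 genes and 0.02 for all genes. Every S64F/+ library was above every WT library for 8 of the 37 (5.28% of all genes), and below for 1, Gpnmb (6.36% of all genes). Without S64F/+ replicate 1 the count of genes that rose was 10 and the median 0.56. Without S64F/+ replicate 5 the count was 23 and the median 0.90. Leaving out a WT library, replicate 1 or 5, gave 11 or 12, and leaving out S64F/+ replicate 3 gave 13. The calls of Adgre1, Arg1, Cd68, Coro1a, Fcgr2b, Fcgr3, Lcp1, Lgals3, Spi1 and Tyrobp held in all 18 fits that leave out 1 library, and those of Ptprc, Laptm5, Cd53, Lyz2, Cd14, Cd163, Cd209d and Pdcd1lg2 did not, with a highest adjusted p between 0.0646 (Cd163) and 0.12 (Lyz2). The calls of Ptprc, Cd53 and Lyz2 were lost in 6 of these fits. Those of Laptm5 and Cd209d were lost in 5, and those of Cd14, Cd163 and Pdcd1lg2 in 4. For each of these genes the fits that lost the call included fits without a female WT library. Both sexes shared 17 of the calls, which is 63.0% of the male and 94.4% of the female calls. Over all genes 777 were called higher in both sexes, which is 27.6% of the male and 41.6% of the female calls.

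**Figure D1:**
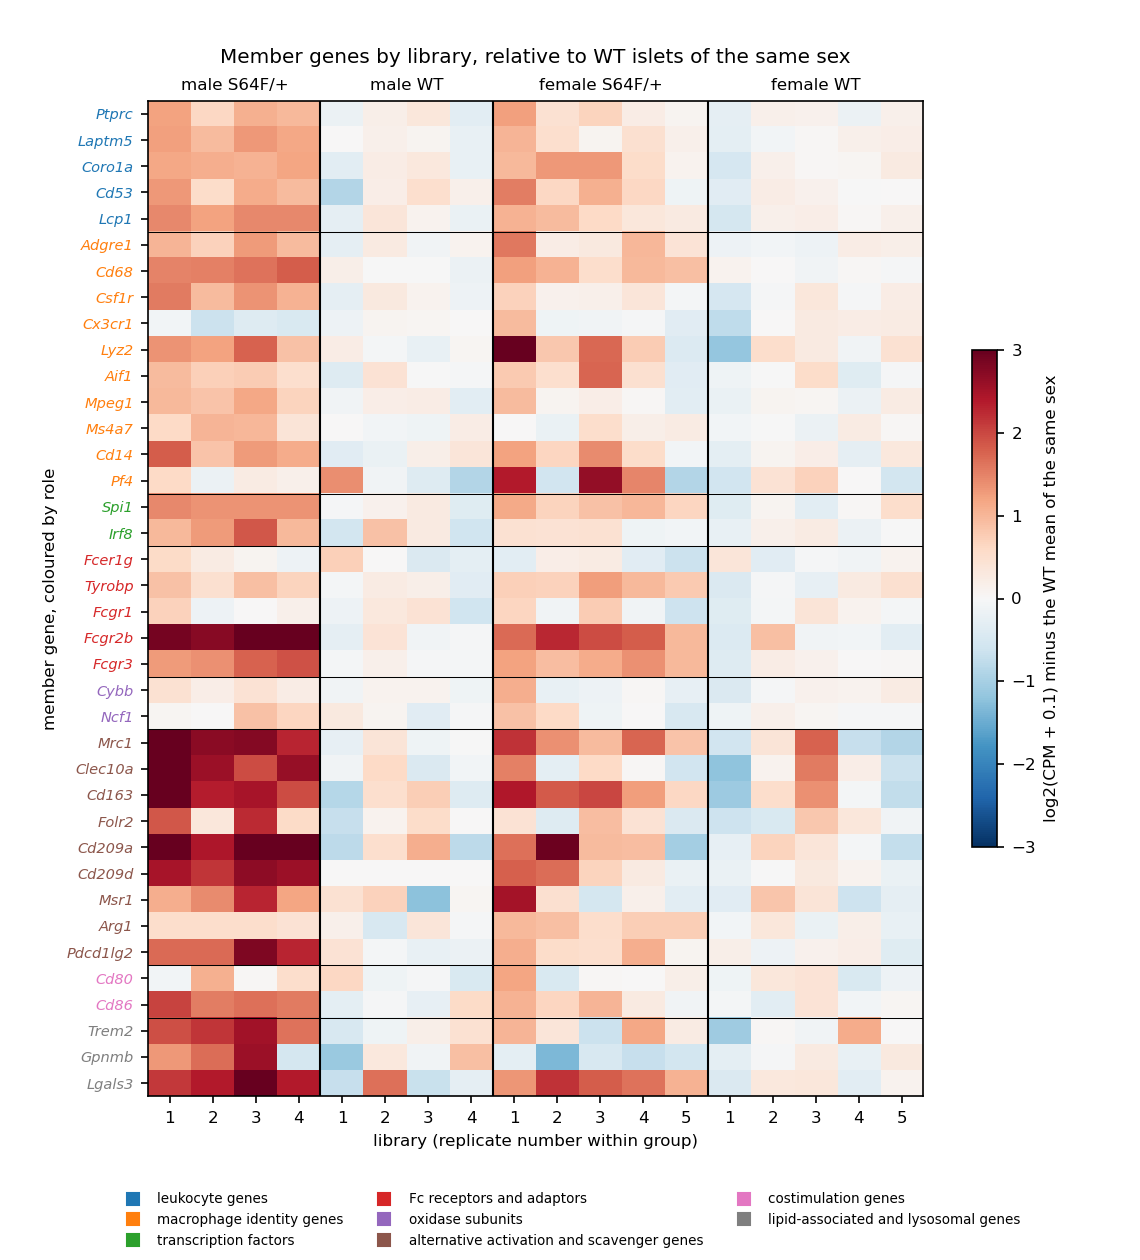
Each of the 38 genes (rows, by role) in each of the 18 libraries (columns), as log2(CPM + 0.1) minus the mean of the WT libraries of the same sex, with colour capped at 3 either way. Most rows are above WT in all 4 male S64F/+ libraries, while the female S64F/+ columns vary from replicate 1, highest for 22 genes, to replicate 5, lowest for 26.

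The 5 general leukocyte genes rose in both sexes, with medians of 1.11 in males and 0.65 in females on the log2 scale. Ptprc, which encodes the CD45 phosphatase on all leukocytes, had 10.3, 6.89, 9.41 and 8.87 CPM in male S64F/+ libraries, against 3.93, 5.03, 5.62 and 3.53 CPM in male WT. In females it had 9.17, 5.33, 6.19, 4.52 and 4.09 CPM in S64F/+ libraries, against 3.17, 4.26, 4.23, 3.39 and 4.25 CPM in WT. The male groups did not overlap, whereas female S64F/+ replicate 5 lay within the WT range. The log2 fold change was 0.97 ± 0.22 in males (adjusted p 0.00334 by edgeR) and 0.60 ± 0.20 in females (adjusted p 0.038 by edgeR). Without female S64F/+ replicate 1 the female value was 0.38 and did not pass the test.

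Lcp1, which encodes the leukocyte actin bundler L-plastin, had 22.1, 18.7, 22.1 and 22.1 CPM in male S64F/+ libraries, against 6.63, 10.4, 8.68 and 7.07 CPM in male WT. Its female values were 18.1, 17, 13.3, 11.2 and 10.6 CPM in S64F/+ libraries, against 6.13, 9.75, 10.1, 9.04 and 9.75 CPM in WT. Lcp1 is the leukocyte gene whose groups were apart in both sexes, with log2 fold changes of 1.37 ± 0.19 in males and 0.65 ± 0.17 in females (adjusted p 3.64e-05 and 0.00909 by edgeR). Coro1a, which encodes the actin regulator coronin 1A, had 10.6, 10.1, 9.69 and 10.8 CPM in male S64F/+ libraries, against 3.7, 5.46, 5.85 and 3.99 CPM in male WT. Female S64F/+ libraries had 10.4, 13, 13, 7.71 and 5.64 CPM of it, against 3.66, 5.77, 5.37, 5.4 and 6.28 CPM in female WT. The male groups were well apart, and in females S64F/+ replicate 5 fell inside the WT range. Its log2 fold changes were 1.11 ± 0.23 in males and 0.91 ± 0.20 in females (adjusted p 0.00149 and 0.00404 by edgeR).

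Laptm5, a lysosomal membrane protein of blood cells, had 15.4, 12.7, 16.3 and 14.8 CPM in male S64F/+ libraries, against 6.58, 7.19, 6.85 and 5.55 CPM in male WT. Among females it had 16.7, 11.6, 8.64, 11.4 and 9.01 CPM in S64F/+ libraries, against 6.63, 7.7, 8.33, 9.07 and 9.42 CPM in WT, so that replicates 3 and 5 overlapped WT. The log2 fold change of 1.17 ± 0.18 in males had an edgeR adjusted p of 8.05e-05, and the 0.48 ± 0.15 in females one of 0.0315. Without female S64F/+ replicate 1 the Laptm5 difference in females was 0.31 and did not pass. The female call was lost in 5 of the 18 fits that leave out 1 library, with an edgeR adjusted p up to 0.0901 without female WT replicate 1. Cd53, a leukocyte tetraspanin, had 3.32, 1.95, 2.92 and 2.59 CPM in male S64F/+ libraries, against 0.663, 1.52, 1.9 and 1.44 CPM in male WT. Its values in females were 2.88, 1.5, 2.08, 1.48 and 0.843 CPM in S64F/+ libraries, against 0.711, 1.11, 1.03, 0.923 and 0.945 CPM in WT. Male libraries were just apart and female libraries overlapped through S64F/+ replicate 5. The log2 fold changes were 0.95 ± 0.33 and 0.90 ± 0.30 in males and females (adjusted p 0.0374 and 0.0371 by edgeR). The male call was lost in 6 of the 18 fits that leave out 1 library, with an adjusted p up to 0.111 without male WT replicate 1. Without female S64F/+ replicate 1 the female value was 0.64 and did not pass (adjusted p 0.108 by edgeR).

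Of the 10 macrophage identity genes, 6 rose in males and 4 in females, with median log2 fold changes of 0.96 and 0.81. Csf1r, the receptor for the macrophage growth factor CSF1, had 33.4, 22.1, 28.9 and 23.4 CPM in male S64F/+ libraries, against 9.45, 14, 12.3 and 10.2 CPM in male WT. Its female values were 23.2, 15.6, 15.8, 18.3 and 13.7 CPM in S64F/+ libraries, against 10.1, 13.9, 18, 14 and 16.7 CPM in WT. The male groups did not overlap and the female groups overlapped broadly. Mean levels were 27 ± 5.22 and 11.5 ± 2.05 CPM in male S64F/+ and WT (SD, n = 4 each), a log2 fold change of 1.23 ± 0.19 (adjusted p 0.000118 by edgeR). In females they were 17.3 ± 3.67 and 14.5 ± 3.04 CPM (SD, n = 5 each), a log2 fold change of 0.26 ± 0.17 that did not pass the test (adjusted p 0.297 by edgeR).

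Cd68, a lysosomal glycoprotein abundant in macrophages, had 8.66, 8.83, 9.47 and 10.8 CPM in male S64F/+ libraries, against 3.43, 3.01, 2.99 and 2.66 CPM in male WT. The female values were 8.63, 7.58, 5.28, 7.13 and 6.78 CPM in S64F/+ libraries, against 3.87, 3.64, 3.32, 3.72 and 3.49 CPM in WT. Neither sex had any overlap, and the WT libraries of both sexes lay within a narrow band. The means were 9.44 ± 0.973 and 3.02 ± 0.315 CPM in males (SD, n = 4 each), a fold of 3.13 and a log2 fold change of 1.65 ± 0.15 (adjusted p 3.52e-07 by edgeR). They were 7.08 ± 1.22 and 3.61 ± 0.21 CPM in females (SD, n = 5 each), a log2 fold change of 0.97 ± 0.13 (adjusted p 2.5e-05 by edgeR).

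Adgre1, which encodes F4/80, had 6.51, 5.16, 7.76 and 6.21 CPM in male S64F/+ libraries, against 2.6, 3.83, 2.89 and 3.38 CPM in male WT. Its female S64F/+ libraries had 9.94, 3.79, 4.03, 6.59 and 4.32 CPM, against 2.91, 3.05, 2.91, 3.81 and 3.68 CPM in female WT. Males were apart, whereas female S64F/+ replicate 2 lay just under WT replicate 4. The log2 fold change was 1.01 ± 0.26 in males and 0.82 ± 0.23 in females (adjusted p 0.00642 and 0.0151 by edgeR). Without female S64F/+ replicate 1, by far the highest, the female value was 0.52 and still passed.

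Cd14, the coreceptor for bacterial lipopolysaccharide, had 8.55, 4.29, 5.8 and 5.21 CPM in male S64F/+ libraries, against 1.82, 2.02, 2.66 and 3.04 CPM in male WT. It had 5.32, 3.57, 6.15, 3.35 and 2.13 CPM in female S64F/+ libraries, against 1.81, 2.38, 2.58, 1.85 and 2.81 CPM in female WT, where S64F/+ replicate 5 was inside the WT range. The differences were 1.32 ± 0.29 in males and 0.84 ± 0.26 in females on the log2 scale (adjusted p 0.00233 and 0.0262 by edgeR). The female Cd14 value was 0.73 and missed the threshold without S64F/+ replicate 1 (adjusted p 0.0537 by edgeR). Lyz2, lysozyme of macrophages and neutrophils, had 16.7, 15.2, 22.3 and 12.1 CPM in male S64F/+ libraries, against 7.63, 6.26, 5.59 and 6.76 CPM in male WT. Its values in females were 42.2, 7.19, 13.5, 6.96 and 3.02 CPM in S64F/+ libraries, against 1.76, 5.89, 4.92, 3.76 and 5.64 CPM in WT. The male groups were apart and the female S64F/+ libraries ranged from inside the WT range to far above every other library. The log2 fold change of 1.34 ± 0.61 in males did not pass (adjusted p 0.12 by edgeR), and that of 1.74 ± 0.55 in females did (adjusted p 0.0357 by edgeR). The female call was lost in 6 of the 18 fits that leave out 1 library, among them fits without a WT library. Without female S64F/+ replicate 1 the log2 fold change was 0.80 and the edgeR adjusted p 0.12, the highest of those fits. All groups share one estimate of the spread, and the male difference passed without that library, at the same 1.34 (adjusted p 0.0166 by edgeR). Lyz2 has a close paralogue, Lyz1, so its count is uncertain where reads could be split.

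The other identity genes were Cx3cr1, Aif1, Mpeg1, Ms4a7 and Pf4. Mpeg1, which encodes the pore-forming perforin-2, and Ms4a7, a membrane protein of tissue macrophages, rose in males by 0.91 ± 0.21 and 0.79 ± 0.19 on the log2 scale (adjusted p 0.00292 and 0.00499 by edgeR). Their female log2 fold changes were 0.25 and 0.17 and did not pass. Cx3cr1, the fractalkine receptor, averaged 3.82 ± 0.652 CPM in male S64F/+ and 5.02 ± 0.35 CPM in male WT (SD, n = 4 each). In females it averaged 4.99 ± 2.13 CPM in S64F/+ and 4.66 ± 1.19 CPM in WT (SD, n = 5 each). Neither difference passed: the log2 fold change was -0.39 ± 0.26 in males (adjusted p 0.29 by edgeR) and 0.11 ± 0.23 in females (adjusted p 0.788 by edgeR). Aif1, which encodes the macrophage actin-binding protein IBA1, had log2 fold changes of 0.76 and 0.81 in males and females, neither past the threshold (adjusted p 0.123 and 0.0706 by edgeR). The female value passed without S64F/+ replicate 5 (1.01, adjusted p 0.0172 by edgeR) or WT replicate 3 (0.97, adjusted p 0.0435 by edgeR), and without female S64F/+ replicate 3 the male value of 0.76 passed (adjusted p 0.0466 by edgeR). Pf4, a chemokine of platelets and of some resident macrophages, was below 1 CPM on average in every group and passed in neither sex. Its female value was 2.20 ± 0.81 (adjusted p 0.0618 by edgeR), and it passed without S64F/+ replicate 5 (2.54, adjusted p 0.0159 by edgeR) or replicate 2 (2.48, adjusted p 0.0325 by edgeR).

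**Figure D2:**
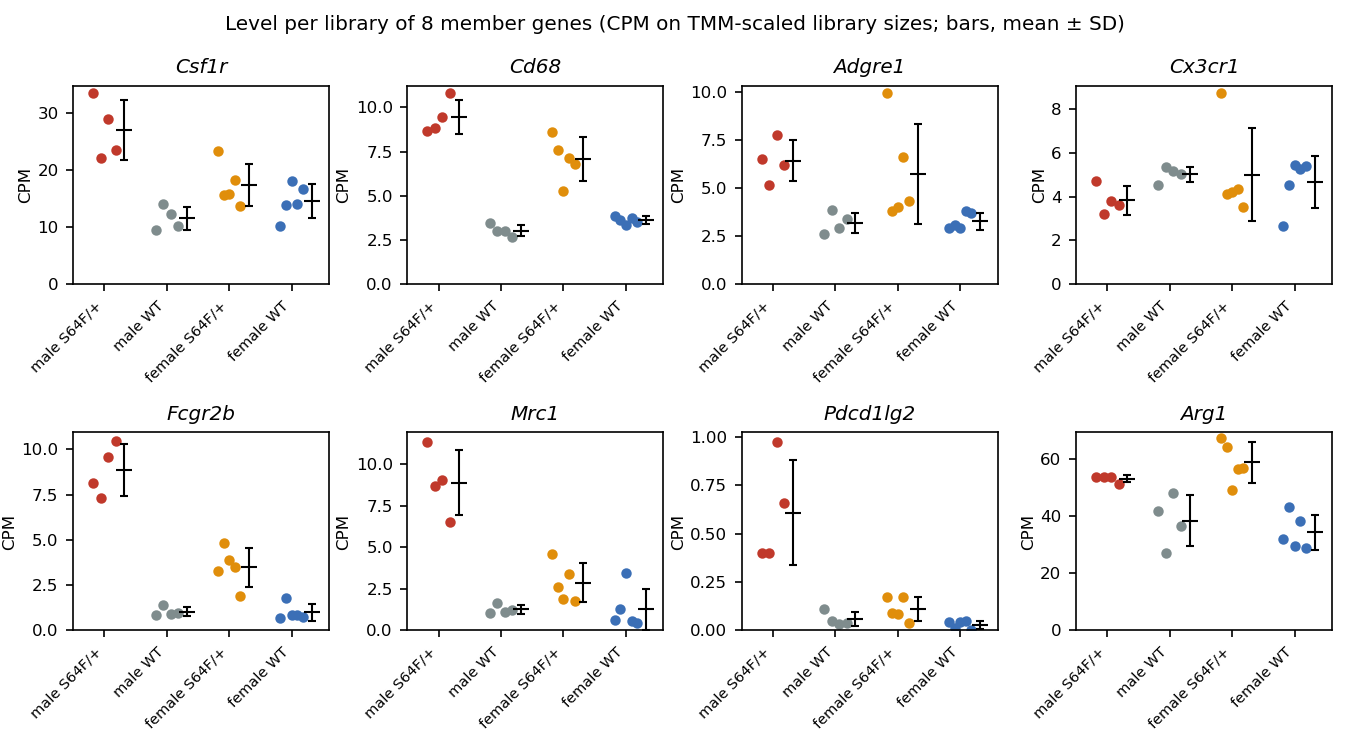
CPM of 8 of the genes in each library (points) with the group mean and SD (bars), in the order male S64F/+, male WT, female S64F/+, female WT. Fcgr2b and Mrc1 in males are several-fold above WT, Cx3cr1 is not above WT in males, and Arg1 is high in all groups with S64F/+ above WT in both sexes.

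Both myeloid transcription factors rose in males. Spi1, which encodes PU.1, had 3.71, 3.49, 3.49 and 3.45 CPM in male S64F/+ libraries, against 1.27, 1.42, 1.6 and 0.988 CPM in male WT. Female S64F/+ libraries had 3.53, 2.51, 2.95, 3.23 and 2.49 CPM of Spi1, against 1.2, 1.67, 1.23, 1.61 and 2.29 CPM in female WT. The groups were apart in both sexes, with log2 fold changes of 1.42 ± 0.21 in males and 0.88 ± 0.19 in females (adjusted p 9.03e-05 and 0.00248 by edgeR). Irf8, a factor of monocyte and dendritic cell development, averaged 7.71 ± 2.47 CPM in male S64F/+ and 3.33 ± 1.73 CPM in male WT (SD, n = 4 each), a log2 fold change of 1.19 ± 0.29 (adjusted p 0.00483 by edgeR). In females its log2 fold change was 0.24 ± 0.26 and did not pass (adjusted p 0.555 by edgeR).

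Of the 5 Fc receptors and adaptors, 3 rose in each sex, and they were the same 3: Fcgr2b, Fcgr3 and Tyrobp. Fcgr2b, the inhibitory IgG receptor, had 8.12, 7.29, 9.59 and 10.4 CPM in male S64F/+ libraries, against 0.83, 1.4, 0.931 and 0.988 CPM in male WT. It had 3.27, 4.85, 3.91, 3.5 and 1.92 CPM in female S64F/+ libraries, against 0.675, 1.81, 0.862, 0.876 and 0.732 CPM in female WT. There was no overlap in either sex. The fold was 8.42 in males, a log2 fold change of 3.07 ± 0.32 (adjusted p 1.93e-06 by edgeR), and 3.47 in females, a log2 fold change of 1.79 ± 0.27 (adjusted p 0.00013 by edgeR). B cells also express Fcgr2b, and their part in its values was not tested. The B cell markers are given with the other marker lists.

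Fcgr3, an activating IgG receptor, had 3.6, 3.86, 5.17 and 5.7 CPM in male S64F/+ libraries, against 1.38, 1.61, 1.4 and 1.37 CPM in male WT. In females it had 3.77, 3.04, 3.49, 4.17 and 3.17 CPM in S64F/+ libraries, against 1.16, 1.84, 1.72, 1.56 and 1.61 CPM in WT. Tyrobp, the DAP12 signalling adaptor, had 4.35, 3.27, 4.36 and 3.69 CPM in male S64F/+ libraries, against 2.21, 2.74, 2.59 and 1.79 CPM in male WT. Both genes were apart between genotypes in males. The female Tyrobp values of 3.77, 3.75, 5.57, 4.56 and 3.99 CPM in S64F/+ libraries were also above all WT values, 1.65, 2.2, 1.89, 2.77 and 3.19 CPM. Fcgr3 had log2 fold changes of 1.66 ± 0.19 in males and 1.17 ± 0.17 in females (adjusted p 5.51e-06 and 7.05e-05 by edgeR). Those of Tyrobp were 0.74 ± 0.21 and 0.89 ± 0.19 (adjusted p 0.0139 and 0.00265 by edgeR). The male Tyrobp call was lost in 1 of the 18 fits that leave out 1 library, without male WT replicate 4 (adjusted p 0.055 by edgeR). Fcgr1, the high-affinity IgG receptor, and Fcer1g, the Fc receptor gamma chain that pairs with Fcgr1 and Fcgr3, did not pass in either sex. Fcer1g averaged 4.96 ± 1.11 CPM in male S64F/+ and 4.51 ± 1.78 CPM in male WT (SD, n = 4 each), a log2 fold change of 0.15 ± 0.25 (adjusted p 0.71 by edgeR). In females it was -0.16 ± 0.23 (adjusted p 0.676 by edgeR). The Fc receptor genes are similar in sequence, so reads could be split between them.

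The phagocyte oxidase genes Cybb and Ncf1, whose products make superoxide, passed in neither sex. Their log2 fold changes were 0.33 ± 0.24 and 0.46 ± 0.28 in males (adjusted p 0.34 and 0.247 by edgeR). They were 0.20 ± 0.22 and 0.27 ± 0.25 in females (adjusted p 0.562 and 0.486 by edgeR).

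The alternative activation and scavenger genes had the largest male differences by median. Of 9 tested, 8 rose in males with a median log2 fold change of 2.79, and 4 rose in females with a median of 1.25. Pdcd1lg2 and Cd209d passed the filter on low counts only through male S64F/+ libraries, where they were high. Clec10a, at most 0.574 CPM in any library of the other groups, passed mainly through them. Their place in the count of 8 and in the male median follows from that group, and both are descriptive. Mrc1, the mannose receptor CD206, had 11.4, 8.71, 9.04 and 6.53 CPM in male S64F/+ libraries, against 1.05, 1.66, 1.13 and 1.25 CPM in male WT. Its female values were 4.63, 2.6, 1.91, 3.4 and 1.8 CPM in S64F/+ libraries, against 0.603, 1.27, 3.45, 0.545 and 0.472 CPM in WT. All male S64F/+ libraries were several-fold above all male WT libraries, while in females WT replicate 3 was above every S64F/+ library except replicate 1. The male fold was 6.92, a log2 fold change of 2.79 ± 0.52 (adjusted p 0.000684 by edgeR). The female log2 fold change of 1.25 ± 0.45 missed the threshold (adjusted p 0.0567 by edgeR). It turned on single libraries: it was 1.98 without WT replicate 3 (adjusted p 0.000356 by edgeR) and 1.39 without S64F/+ replicate 5 (adjusted p 0.0479 by edgeR), and it passed in DESeq2 (adjusted p 0.0181).

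Cd163, the haemoglobin scavenger receptor, had 3.71, 1.85, 1.99 and 1.37 CPM in male S64F/+ libraries, against 0.111, 0.433, 0.532 and 0.19 CPM in male WT. In females it had 1.61, 1.06, 1.2, 0.673 and 0.403 CPM in S64F/+ libraries, against 0.054, 0.369, 0.738, 0.213 and 0.0945 CPM in WT. Males were apart and females overlapped through WT replicate 3. The log2 fold changes were 2.74 ± 0.64 and 1.87 ± 0.57 in males and females (adjusted p 0.00373 and 0.0264 by edgeR). The female value was 1.60 and missed the threshold without S64F/+ replicate 1 (adjusted p 0.0557 by edgeR). Pdcd1lg2, the PD-1 ligand PD-L2 induced by IL-4 in mouse macrophages, had 0.399, 0.401, 0.973 and 0.66 CPM in male S64F/+ libraries, against 0.111, 0.0481, 0.0333 and 0.038 CPM in male WT. Its values in females were 0.172, 0.0882, 0.0831, 0.173 and 0.0366 CPM in S64F/+ libraries, against 0.045, 0.0148, 0.041, 0.0474 and 0 CPM in WT. The gene was near its detection limit outside male S64F/+ islets, with 6 counts over the 4 male WT libraries. The log2 fold changes were 3.46 ± 0.61 in males and 1.82 ± 0.59 in females (adjusted p 0.00038 and 0.0354 by edgeR). The female call was lost without S64F/+ replicate 1 (1.59, adjusted p 0.0737 by edgeR), without the filter on low counts (adjusted p 0.0623 by edgeR) and in DESeq2 (adjusted p 0.0524).

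Cd209d, a C-type lectin of the DC-SIGN family, had 0.457, 0.34, 0.547 and 0.489 CPM in male S64F/+ libraries, and 0 in all 4 male WT libraries. With 90 counts in S64F/+ against a limit of 3 counts over the WT group, it was at least 18.1-fold higher (adjusted p 0.00148 by edgeR). In females it had 0.301, 0.265, 0.0831, 0.0384 and 0 CPM in S64F/+ libraries, against 0, 0.0148, 0.041, 0.0237 and 0 CPM in WT. That is 24 counts in S64F/+ and 3 in WT, a ratio of 11.5 with a 95% counting interval of 3.50 to 59.8 (adjusted p 0.0289 by edgeR). The female call was lost without S64F/+ replicate 1 (adjusted p 0.0936 by edgeR). The interval and the limit cover counting error only. Its paralogue Cd209a, also called DC-SIGN, rose in males by 3.75 ± 0.97 on the log2 scale (adjusted p 0.00791 by edgeR) and in females had a log2 fold change of 2.07 ± 0.84 (adjusted p 0.0917 by edgeR), which was 2.42 and passed without S64F/+ replicate 5 (adjusted p 0.0177 by edgeR). Cd209a averaged 0.103 ± 0.128 CPM in male WT (SD, n = 4), so its male fold rests on few WT counts.

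Arg1, the arginase that competes with nitric oxide synthase for arginine, had 53.8, 53.9, 53.8 and 51.1 CPM in male S64F/+ libraries, against 41.7, 27, 48.2 and 36.5 CPM in male WT. Among females it had 67.3, 64.1, 49.3, 56.5 and 56.8 CPM in S64F/+ libraries, against 31.9, 43.2, 29.5, 38.2 and 29 CPM in WT. The groups were apart in both sexes, but the differences were small: 0.47 ± 0.15 in males and 0.77 ± 0.13 in females on the log2 scale (adjusted p 0.0249 and 0.000458 by edgeR). The male call was lost in 5 of the 18 fits that leave out 1 library, with an adjusted p up to 0.0789 without male WT replicate 2. Arg1 was the most abundant of the 38 per length in these islets, and the cells that express it cannot be told from bulk RNA.

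Clec10a and Folr2 passed the test in males and missed it in females. Clec10a, the galactose lectin MGL1, averaged 1.33 ± 0.532 CPM in male S64F/+ and 0.133 ± 0.075 CPM in male WT (SD, n = 4 each), a log2 fold change of 3.23 ± 0.88 (adjusted p 0.0106 by edgeR). Folr2, a folate receptor of resident macrophages, had a log2 fold change of 1.83 ± 0.60 in males (adjusted p 0.0297 by edgeR), though its ranges overlapped and 5 of the 18 fits that leave out 1 library lost the call, with an adjusted p up to 0.113 without male S64F/+ replicate 3. Their female log2 fold changes were 0.50 and 0.33 and did not pass. The exception among the 9 was Msr1, the class A scavenger receptor: its male groups were apart, but the log2 fold change of 1.72 ± 0.78 did not pass (adjusted p 0.111 by edgeR), though it did at the same value without female S64F/+ replicate 1 (adjusted p 0.0311 by edgeR). Clec10a resembles its neighbour Mgl2, and reads could be split between them.

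Cd86, a costimulatory ligand of CD28, had 1.51, 1.05, 1.16 and 1.08 CPM in male S64F/+ libraries, against 0.221, 0.289, 0.233 and 0.494 CPM in male WT. Its female values were 1.27, 0.926, 1.25, 0.692 and 0.513 CPM in S64F/+ libraries, against 0.531, 0.428, 0.78, 0.521 and 0.59 CPM in WT. The male groups were apart and the female groups overlapped. The log2 fold change was 1.94 ± 0.34 in males (adjusted p 0.00033 by edgeR) and 0.71 ± 0.28 in females, where it did not pass (adjusted p 0.0827 by edgeR) unless S64F/+ replicate 5 was left out (0.87, adjusted p 0.0335 by edgeR). Cd80, the other CD28 ligand, was too low to test and averaged below 0.1 CPM in every group.

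Among the 3 lipid-associated genes, Lgals3 rose in both sexes and Trem2 rose in males. Lgals3, which encodes galectin-3, had 8.0, 9.64, 24.6 and 9.63 CPM in male S64F/+ libraries, against 1.05, 5.75, 1.06 and 1.44 CPM in male WT. Female S64F/+ libraries had 3.06, 5.51, 4.32, 3.75 and 2.47 CPM, against 0.828, 1.46, 1.48, 0.90 and 1.25 CPM in female WT. The groups did not overlap in either sex, but male S64F/+ replicate 3 and male WT replicate 2 were far above their groups. The log2 fold changes were 2.44 ± 0.51 and 1.69 ± 0.45 in males and females (adjusted p 0.00173 and 0.0138 by edgeR). The male value ranged from 1.93 to 3.44 over the fits that leave out 1 library and passed in all of them. Trem2, a lipid-sensing receptor that signals through Tyrobp, averaged 1.15 ± 0.328 CPM in male S64F/+ and 0.204 ± 0.0833 CPM in male WT (SD, n = 4 each), a log2 fold change of 2.47 ± 0.60 (adjusted p 0.00448 by edgeR). Its female log2 fold change was 0.64 ± 0.53 (adjusted p 0.421 by edgeR). Gpnmb, a glycoprotein of lipid-laden macrophages, missed the threshold in males, where its log2 fold change was 1.88 ± 0.72 (adjusted p 0.0581 by edgeR). It passed with plain library-size scaling (adjusted p 0.0359 by edgeR), in DESeq2 (adjusted p 0.0497), and without male WT replicate 4 or male S64F/+ replicate 4, and ranged from 1.22 to 2.42 with 1 library left out. Gpnmb was at -1.13 ± 0.73 in females (adjusted p 0.294 by edgeR).

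Whether the genotype difference itself depended on sex was tested as the male minus the female log2 fold change. This passed for 2 of the 37 genes, Cd68 and Csf1r, both with the larger difference in males; of all genes, 2.87% passed in that direction and 1.60% in the other (4.47% together). Under plain library-size scaling the calls over all genes were 1031 and 30 in place of 527 and 294, and 4 of the 37 passed. The male minus female value was 0.97 ± 0.25 for Csf1r (adjusted p 0.0401 by edgeR) and 0.67 ± 0.19 for Cd68 (adjusted p 0.0494 by edgeR). Both are close to the threshold: the Cd68 call was lost in 16 of the 18 fits that leave out 1 library (adjusted p up to 0.114, without male WT replicate 4) and the Csf1r call in 12 (adjusted p up to 0.0951). The Cd68 call was also lost with RLE factors (adjusted p 0.0501 by edgeR) and without the filter on low counts (adjusted p 0.121 by edgeR). The count ranged from 0 to 5 over those fits, and was 5 without female S64F/+ replicate 1. The value was positive for 30 of the 37, with a median of 0.62 on the log2 scale, against 51.5% of all genes and a median of 0.01. Under plain library-size scaling the medians were 0.88 for the 37 and 0.25 for all genes. For the 10 genes called in males alone, other than Csf1r, the difference between the sexes did not pass. Mrc1, one of these 10, had a male minus female value of 1.54 ± 0.67 (adjusted p 0.167 by edgeR). Among genes called in both sexes, the value was 1.28 ± 0.41 for Fcgr2b (adjusted p 0.0705 by edgeR) and 0.72 ± 0.25 for Lcp1 (adjusted p 0.0927 by edgeR).

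**Figure D3:**
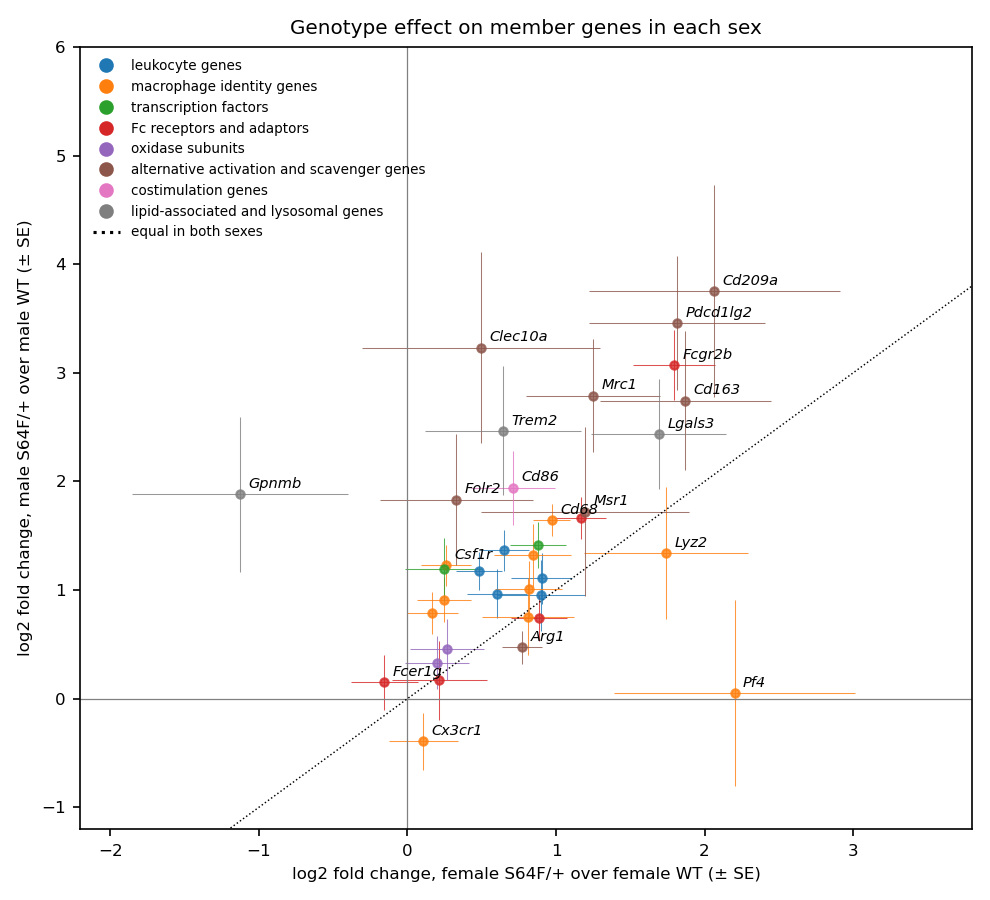
Log2 fold change of S64F/+ over WT in males (vertical axis) against that in females (horizontal axis) for 36 of the genes, with bars of 1 SE. Most points lie above the line of equal change; Cd80 was not tested and Cd209d is left out because male WT libraries had 0 counts.

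Between S64F/+ groups, 13 of the 37 genes were higher in males than in females and 0 were lower, against 8.00% of all genes higher and 8.12% lower. Under plain library-size scaling 2763 of all genes were higher and 374 lower in place of 1470 and 1492, and 15 of the 37 were higher. The 13 were Lcp1, Cd68, Csf1r, Mpeg1, Ms4a7, Irf8, Fcgr2b, Mrc1, Clec10a, Pdcd1lg2, Trem2, Gpnmb and Lgals3. The male and female ranges were apart, with males above, for 11 of the 37 (7.91% of all genes), and with males below for 0 (8.27% of all genes). Fcgr2b had a log2 difference of 1.35 ± 0.27 (adjusted p 0.00467 by edgeR), Pdcd1lg2 of 2.40 (adjusted p 0.00471 by edgeR) and Ms4a7 of 0.81 (adjusted p 0.00788 by edgeR). These 3 were the calls that held in all 18 fits that leave out 1 library. Without the filter on low counts Cd68, Mrc1 and Clec10a missed the threshold (adjusted p 0.113, 0.0569 and 0.0648 by edgeR). The count of 13 became 5 without male S64F/+ replicate 3, 6 without female S64F/+ replicate 5, 7 without male S64F/+ replicate 1 and 19 without female S64F/+ replicate 1. Between WT groups, 0 of the 37 differed by sex in edgeR and 0 in DESeq2, against 1.73% of all genes higher in males and 0.637% lower. At an unadjusted edgeR p below 0.05 there were 2 of the 37, against 17.9% of all genes. The ranges of the WT groups overlapped for all 37, whereas 4.21% of all genes had males above and 3.25% males below.

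To describe how the genes changed relative to each other, each was set against the sum of Csf1r, Adgre1, Cd68 and Ptprc in the same library. The sum was 59.0, 43.0, 55.5 and 49.3 CPM in male S64F/+ libraries, against 19.4, 25.8, 23.8 and 19.8 CPM in male WT. It was 51.0, 32.3, 31.3, 36.5 and 28.9 CPM in female S64F/+ libraries, against 20.0, 24.9, 28.5, 24.9 and 28.1 CPM in female WT. The sum was higher in every S64F/+ library than in every WT library of the same sex, with a log2 ratio of means of 1.22 in males and 0.51 in females. Relative to it, 8 genes were above WT in every male S64F/+ library: Pdcd1lg2, Clec10a, Fcgr2b, Cd163, Mrc1, Trem2, Cd209a and Cd209d. Of all genes tested outside the sum, 2.51% were above in this way. Cx3cr1, Fcer1g, Fcgr1, Cybb and Tyrobp had every male S64F/+ library below every WT library, as did 71.0% of all genes tested outside the sum, so these 5 do not stand out from the genes at large by that count. These are ratios within libraries, given with no test, and a ratio below WT shows unequal change and not a fall in level.

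Fcgr2b came to 17.3% of the sum in male S64F/+ and 4.65% in male WT, and Mrc1 to 17.3% and 5.73%. Cx3cr1 came to 7.38 ± 0.487% in male S64F/+ and 22.8 ± 2.02% in male WT (SD, n = 4 each), Fcer1g to 9.65% and 21.0%, and Cybb to 14.1% and 26.1%. On the log2 scale the relative difference was 1.89 for Fcgr2b, 1.76 for Cd163, 1.58 for Mrc1, -1.63 for Cx3cr1 and -1.03 for Fcer1g in males. In females it was 1.36 for Fcgr2b, 1.69 for Cd163, 1.05 for Mrc1, -0.43 for Cx3cr1 and -0.66 for Fcer1g. Of the 28 genes with a value in both sexes, 20 had the same sign in both and 8 had opposite signs. The 8 were Folr2, Irf8, Coro1a, Cd53, Aif1, Tyrobp, Arg1 and Pf4, and Tyrobp was at -0.46 in males and 0.42 in females.

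**Figure D4:**
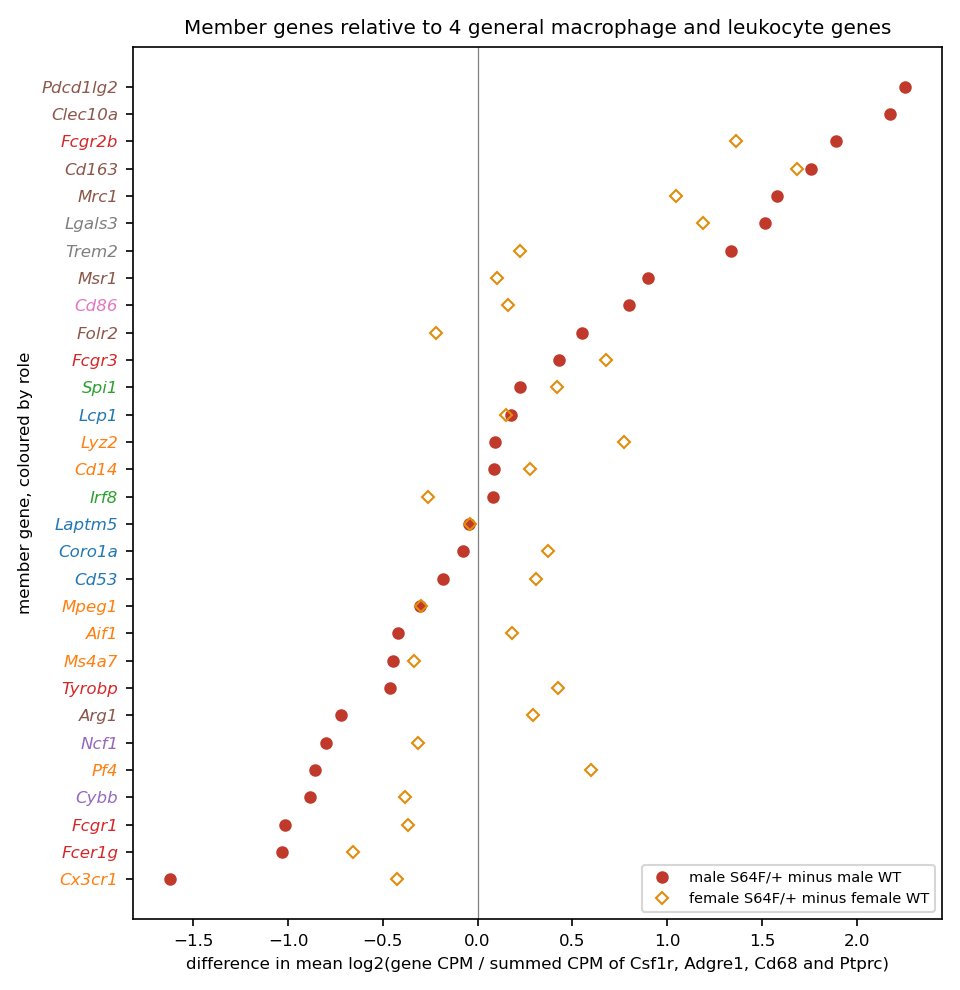
Difference between S64F/+ and WT in the mean log2 ratio of each gene to the sum of Csf1r, Adgre1, Cd68 and Ptprc, for 30 of the genes in males and 28 of them in females. Fcgr2b, at 1.89 in males and 1.36 in females, stands near the high end and Cx3cr1, at -1.63 and -0.43, at the low end. The 4 genes of the sum, Cd80 and genes with male libraries at 0 are not drawn. Pdcd1lg2 and Clec10a, with female WT libraries at 0, are drawn for males only.

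Wider lists place the 38 genes in their pathways, and some of the 38 belong to them too. Like the 38, these lists were chosen with earlier results of these data known. Over all genes tested, 15.4% rose and 12.3% fell in males, and 10.2% rose and 11.0% fell in females. Small counts, such as 2 of 11 classical activation genes in females, are not far from those shares and are no finding about a list. Of 17 alternative activation genes tested, 14 rose and 0 fell in males (median log2 fold change 3.28), and 8 rose and 0 fell in females (median 1.89). Chil4, Ccl17 and Rnase2a, named after their values were seen, had 0 counts in male WT. They passed the filter on low counts only through male S64F/+ libraries. Mgl2, a galactose lectin beside Clec10a, averaged 14.5 ± 2.85 CPM in male S64F/+ and 0.203 ± 0.138 CPM in male WT (SD, n = 4 each), a log2 fold change of 6.04 ± 0.43 (adjusted p 3.46e-08 by edgeR). Its female log2 fold change was 4.10 ± 0.35 (adjusted p 2.81e-07 by edgeR). Retnla, the secreted protein FIZZ1, averaged 27.9 ± 11.3 CPM in male S64F/+ and 0.103 ± 0.129 CPM in male WT (SD, n = 4 each), with log2 fold changes of 7.86 ± 0.72 in males and 5.05 ± 0.63 in females (adjusted p 1.37e-06 and 3.34e-05 by edgeR). Mmp12, macrophage elastase, had log2 fold changes of 3.28 ± 0.33 in males and 1.88 ± 0.28 in females (adjusted p 1.44e-06 and 0.000106 by edgeR). Slc7a2, an arginine transporter, had a male log2 fold change of 0.19 ± 0.12 and did not pass (adjusted p 0.237 by edgeR).

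Of 11 classical activation genes tested, 5 rose and 0 fell in males (median 0.88), and 2 rose and 0 fell in females (median 0.48). Cd40, a costimulatory receptor, rose by 1.78 ± 0.28 in males and 1.40 ± 0.24 in females on the log2 scale (adjusted p 0.000126 and 0.000445 by edgeR). Nos2, inducible nitric oxide synthase, averaged 2.49 ± 0.961 CPM in male S64F/+ and 0.372 ± 0.226 CPM in male WT (SD, n = 4 each), a log2 fold change of 2.69 ± 0.43 (adjusted p 0.000144 by edgeR). It averaged 0.992 ± 0.149 CPM in female S64F/+ and 0.984 ± 0.298 CPM in female WT (SD, n = 5 each), and its male minus female value passed (2.69 ± 0.55, adjusted p 0.015 by edgeR). Tnf, the inflammatory cytokine, did not pass in males, with a log2 fold change of 0.70 ± 0.84 (adjusted p 0.583 by edgeR).

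Of 16 growth factor, recruitment and polarizing cytokine genes tested, 11 rose and 0 fell in males (median 1.13), and 3 rose and 0 fell in females (median 0.63). Il4, the cytokine of the alternative programme, averaged 2.94 ± 0.537 CPM in male S64F/+ (SD, n = 4) and had 0 counts in all 4 male WT libraries. It was at least 111-fold higher (adjusted p 1.27e-05 by edgeR), against a limit of 3 counts over the WT group. In females it averaged 1.43 ± 0.616 CPM in S64F/+ and 0.0422 ± 0.0718 CPM in WT (SD, n = 5 each; adjusted p 4.61e-05 by edgeR). Its receptor chain Il4ra rose in males by 0.90 ± 0.14 on the log2 scale (adjusted p 8.8e-05 by edgeR). Csf2rb, the receptor chain shared by GM-CSF, IL-3 and IL-5, rose in males by 3.95 ± 0.42 (adjusted p 2.53e-06 by edgeR), with a male minus female value of 3.09 ± 0.52 (adjusted p 0.00811 by edgeR). Csf1, the ligand of Csf1r, had a male log2 fold change of 0.48 ± 0.21 and did not pass (adjusted p 0.106 by edgeR).

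Of 14 myeloid transcription factors tested, 7 rose and 1 fell in males (median 0.76), and 4 rose and 2 fell in females (median 0.40). Cebpa, a factor of the granulocyte and macrophage lineage, and Batf3, one of dendritic cells, rose in males by 1.16 ± 0.18 and 3.15 ± 0.54 (adjusted p 0.000124 and 0.000273 by edgeR). Pparg, the lipid-sensing nuclear receptor of the alternative programme, was the one that fell in males and is named after its values were seen: its log2 fold change was -0.71 ± 0.16 in males and -1.12 ± 0.14 in females (adjusted p 0.00241 and 2.11e-05 by edgeR).

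Of 20 uptake and complement genes tested, 14 rose and 1 fell in males (median 1.16), and 9 rose and 0 fell in females (median 0.70). Itgax, which encodes CD11c, averaged 18.2 ± 3.7 CPM in male S64F/+ and 3.08 ± 0.522 CPM in male WT (SD, n = 4 each), a log2 fold change of 2.55 ± 0.24 (adjusted p 7.23e-07 by edgeR). Clec7a, the beta-glucan receptor dectin-1, rose by 3.60 ± 0.36 and C1qb, a chain of complement C1q, by 1.24 ± 0.15 in males (adjusted p 1.37e-06 and 9.06e-06 by edgeR). C1qa, another C1q chain, was the one that fell in males and is named after its values were seen (-0.86 ± 0.15, adjusted p 0.000383 by edgeR). All 7 class II presentation genes rose in both sexes, with medians of 1.38 in males and 0.97 in females. H2-Ab1 rose by 1.57 ± 0.18 in males and 1.02 ± 0.16 in females, and Cd74, the invariant chain, by 1.38 ± 0.18 in males (adjusted p 7.36e-06, 0.000195 and 3.29e-05 by edgeR).

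Of 13 genes of receptor signalling through activating and inhibitory tyrosine motifs, 8 rose and 1 fell in males (median 0.81), and 3 rose and 1 fell in females (median 0.43). Inpp5d, the SHIP1 phosphatase recruited by Fcgr2b, and Pirb, an inhibitory receptor, rose in males by 1.12 ± 0.20 and 1.65 ± 0.31 (adjusted p 0.000361 and 0.000713 by edgeR). Sirpa, the CD47 receptor, was the one that fell in males and is named after its values were seen. It averaged 95.4 ± 8.05 CPM in male S64F/+ and 186 ± 9.5 CPM in male WT (SD, n = 4 each), a log2 fold change of -0.97 ± 0.10 (adjusted p 1.77e-06 by edgeR), and beta cells are known to express it.

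Markers of the other cells that islet RNA can hold moved as follows, and their part in the results above was not tested. Beside their counts stand the same shares of all genes, 15.4% higher and 12.3% lower in males, and 10.2% and 11.0% in females. Of the 8 macrophage markers, some of them among the 38, 5 rose in males and 3 in females. They summed to 86.1 to 115 CPM in male S64F/+ and 44.6 to 54.4 CPM in male WT, and to 48.0 to 129 CPM in female S64F/+ and 38.7 to 57.9 CPM in female WT. Of 6 dendritic cell markers, 4 rose in males, where the 6 summed to 10.4 to 12.6 CPM in S64F/+ and 5.47 to 6.95 CPM in WT, and 0 passed in females (4.95 to 8.72 CPM in S64F/+, 5.56 to 6.68 CPM in WT). Zbtb46 carried most of the dendritic cell sum, at a mean of 8.25 CPM in male S64F/+ and 5.26 CPM in male WT. Of 5 neutrophil markers 2 were tested, and both rose in males, to a summed level of 0.680 to 1.79 CPM in S64F/+ against 0.114 to 0.83 CPM in WT. In females they summed to 0.25 to 1.64 CPM in S64F/+ and 0.387 to 0.639 CPM in WT, and 0 passed. Of 4 monocyte markers 3 were tested and 0 passed in either sex. Their sum was 5.04 to 71.6 CPM in male S64F/+ and 2.36 to 47.6 CPM in male WT. In females it was 1.15 to 5.69 CPM in S64F/+ and 0.946 to 2.54 CPM in WT. The high values were those of Plac8 in male S64F/+ replicate 3 (65.4 CPM) and male WT replicate 2 (45.3 CPM), the libraries that were also the highest of their groups for Lgals3.

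Of 3 tested B cell markers 1, Cd79a, fell in both sexes, and all 4 summed to 1.36 to 2.32 CPM in male S64F/+, against 3.15 to 7.88 CPM in male WT. In females they summed to 2.24 to 3.46 CPM in S64F/+ and 4.84 to 10.2 CPM in WT. Cd79a carried most of the sum: it averaged 2.78 CPM in female S64F/+ and 6.77 CPM in female WT, whereas Cd79b averaged 0.159 CPM and 0.0952 CPM. Of 4 tested T cell markers, Cd4 rose in males and Cd4 and Lck in females. All 7 summed to 2.19 to 4.56 CPM in male S64F/+ and 1.60 to 3.39 CPM in male WT, and to 3.33 to 5.11 CPM in female S64F/+ and 1.89 to 3.03 CPM in female WT. The markers of natural killer cells, mast cells and eosinophils were all too low to test, at no more than 0.487, 0.953 and 0.142 CPM summed in a library, and the mast cell gene Fcer1a was at 0 in all 18. Of 3 tested platelet markers 1 rose and 1 fell in males, and 1 rose in females. All 5 summed to 5.49 to 7.49 CPM in male S64F/+ and 4.12 to 12.9 CPM in male WT, and to 4.59 to 10.1 CPM in female S64F/+ and 3.86 to 7.86 CPM in female WT.

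Of the 7 stellate and fibroblast markers, all rose in males, where they summed to 1311 to 2088 CPM in S64F/+ and 126.5 to 381 CPM in WT. In females 0 passed, with 148.2 to 845.1 CPM in S64F/+ and 160.0 to 669.3 CPM in WT. Of 6 vascular endothelial markers 4 rose in males, at 657.4 to 772.8 CPM summed in S64F/+ and 349 to 471.7 CPM in WT. In females 0 passed, with 427.1 to 593.1 CPM in S64F/+ and 385.5 to 549.4 CPM in WT. Of 4 lymphatic endothelial markers tested 2 rose and 1 fell in males, where the list summed to 138.5 to 151.7 CPM in S64F/+ and 103.4 to 117.9 CPM in WT. In females 1 rose and 2 fell, with 102.6 to 169 CPM in S64F/+ and 104.9 to 135.1 CPM in WT, and Ccl21a was at 0 in all 18 libraries. Prox1 carried most of the lymphatic sum, at a mean of 119.5 CPM in male S64F/+ and 85.27 CPM in male WT. Lyve1 went the other way, at 4.469 CPM in male S64F/+ and 13.25 CPM in male WT. Its female means were 5.493 CPM in S64F/+ and 16.75 CPM in WT. Of 5 ductal markers 4 rose in males, at 238.8 to 287.2 CPM in S64F/+ and 229.6 to 252.4 CPM in WT, and 1 rose in females, at 222.3 to 263.8 CPM in S64F/+ and 220.0 to 262.2 CPM in WT. Krt7 carried most of the ductal sum and was not higher in males, at a mean of 189.3 CPM in S64F/+ and 222.7 CPM in WT. Of 7 islet endocrine genes 4 fell in males, at 177200 to 207000 CPM summed in S64F/+ and 259100 to 346300 CPM in WT. In females 3 rose and 1 fell, at 210300 to 348500 CPM in S64F/+ and 215600 to 361400 CPM in WT. Most stromal, vascular and ductal markers were therefore higher, and Ins1, Ins2, Iapp and Chga lower, in the same male S64F/+ libraries as the macrophage genes.

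**Figure D5:**
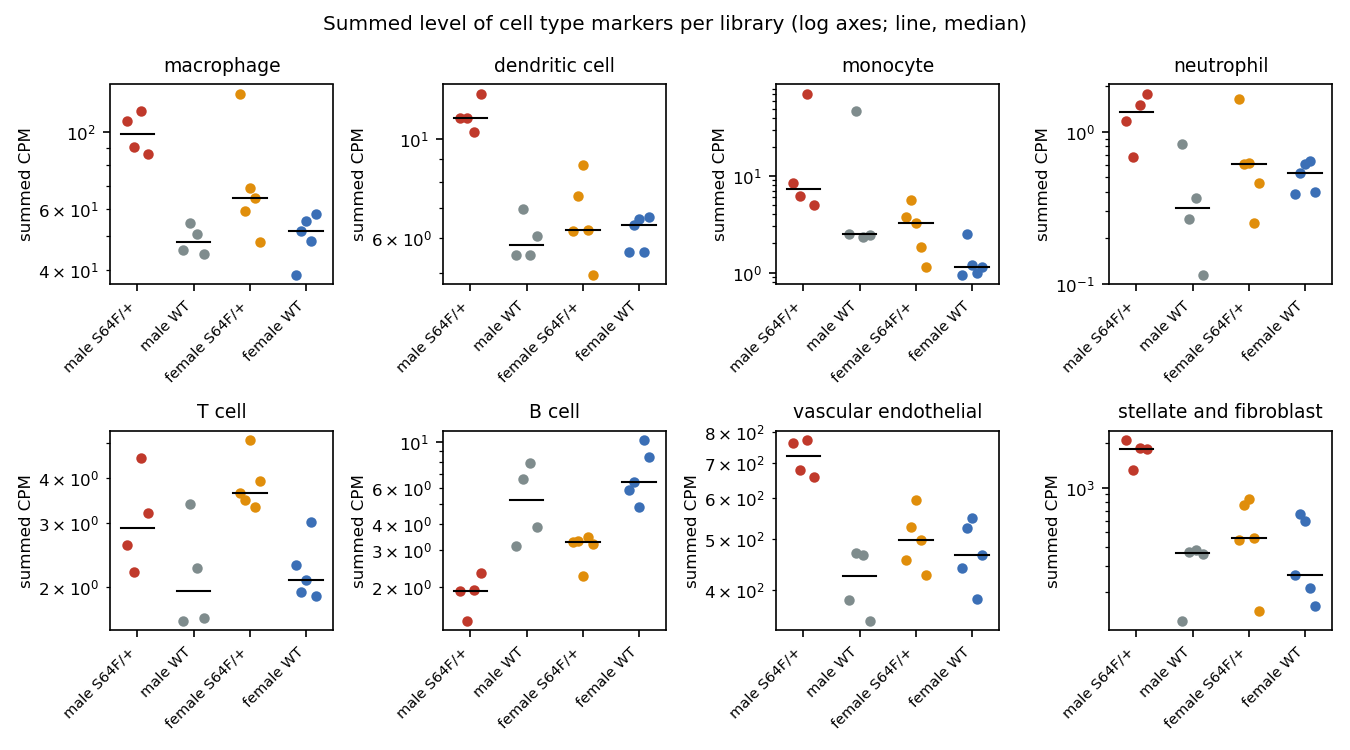
Summed CPM of marker lists of 8 cell types in each library (points, logarithmic axes), with the group median as a line. Stellate and fibroblast markers reach 1311 to 2088 CPM in male S64F/+ libraries, above all male WT libraries (126.5 to 381 CPM), while the B cell sum, mostly Cd79a, is lower in S64F/+ in both sexes.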

How the data were processed

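RNA of 18 libraries of isolated mouse islets was sequenced as paired-end 150-base reads, per the labels' protocols. Per the submitters' processing notes, the build was GRCm38 and the tools included FastQC and MultiQC for quality, STAR, featureCounts and DESeq2, with no versions. The authors deposited raw read counts per gene, the basis of all tests here, and FPKM per gene, used only to rank levels between genes. Neither the annotation behind the counts nor their strand setting was given in the labels or notes. The 99 spike-in features held 0 counts and were left out.

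The tests used edgeR 4.0.16 and limma 3.58.1 under R 4.3.3: TMM scaling, filterByExpr with a minimum count of 10 and a minimum total of 15, and a robust quasi-likelihood fit with 1 coefficient for each of the 4 groups over all 18 libraries. Tests were two-sided, adjusted by Benjamini-Hochberg over all 18364 genes tested, with a threshold of 0.05. The biological coefficient of variation was 24.4%. The contrasts were S64F/+ over WT in each sex, the male minus the female genotype effect, and male over female within each genotype. A standard error is the log2 fold change divided by the square root of its F statistic. CPM used TMM-scaled library sizes (factors 0.88 to 1.14). No 2 replicates of a group agreed within sampling noise.

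The members and the wider and marker lists were chosen with earlier results of these data known, so no p-value is adjusted over a list or given for one. Values by library are given for Adgre1, Cd68, Csf1r and Ptprc, for the 10 members with the smallest p in males, and for every member called in females or in the male minus female test. Of each wider list, at most 3 called genes with the smallest male p and 1 that did not pass are named; others are said to be chosen after their values were seen. Alternatives were plain library-size scaling, edgeR's RLE factors, no filter on low counts, a replicate block, DESeq2 1.42.0, and leaving out each library in turn. The fit was tested on simulated data. Promoter sequences came from RefSeq (GRCm38.p6), with entries for 29 of the 38 genes. Tables and figures were made with pandas 2.3.3 and matplotlib 3.10.9.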

Additional observations from a re-analysis of the deposited data

Results flagged for a closer look

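Each gene was screened in each of the 4 groups for a library separated from the rest of its group by Dixon's criterion, which flagged 15 of 152 checks. Chance flags about 1 in 20 groups. Female S64F/+ replicate 1 was high for Lyz2 (42.2 CPM), Cybb (13.9 CPM), Cx3cr1 (8.76 CPM), Msr1 (1.38 CPM) and Cd80 (0.215 CPM). Of these, Cx3cr1, Cybb and Msr1 passed the genotype test in neither sex. Female WT replicate 3 was high for Mrc1 (3.45 CPM) and Clec10a (0.574 CPM). Male S64F/+ replicate 3 (24.6 CPM) and male WT replicate 2 (5.75 CPM) were high for Lgals3, and the same libraries were high for the monocyte marker Plac8, at 65.4 CPM and 45.3 CPM.

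Male S64F/+ replicate 2 was low for Lcp1 (18.7 CPM), male S64F/+ replicate 4 low for Arg1 (51.1 CPM) and male S64F/+ replicate 1 high for Spi1 (3.71 CPM), each in a group with a narrow range. Female WT replicate 1 was low for Lcp1 (6.13 CPM), female WT replicate 2 high for Fcgr2b (1.81 CPM) and male WT replicate 2 high for Fcgr3 (1.61 CPM).

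The male minus the female genotype effect passed edgeR's test for Csf1r (0.97 on the log2 scale) and Cd68 (0.67), both close to the threshold. Each of these calls is lost under some of the alternatives given under the processing below.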

How the results depend on the processing

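No member fell in either sex under any alternative run. In males 26 to 28 of the 37 genes rose under the 5 other settings and 24 to 29 in the fits that leave out 1 library, and 23 of the 27 calls held in all 18 such fits. In females 13 to 21 rose under the other settings (13 with the replicate block, 21 in DESeq2) and 10 to 23 with 1 library left out, with 10 of the 18 calls held in all 18 fits. The male minus female test passed for 4 genes with plain library-size scaling, 1 each with RLE factors (Csf1r), no filter (Csf1r) and the replicate block (Fcgr2b, adjusted p 0.044 by edgeR), and 5 in DESeq2 (0 to 5 with 1 library left out). Between S64F/+ sexes 5 to 19 genes were higher with 1 library left out.

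Over all genes, plain library-size scaling gave 4248 higher and 666 lower in males, 1031 and 30 in the male minus female test, 2763 and 374 between S64F/+ sexes, and 73 and 39 between WT sexes. DESeq2 gave 1107 and 821 in the male minus female test and 716 and 351 between WT sexes. Without the filter the lower calls were 114 in the male minus female test and 878 between S64F/+ sexes, and WT sexes gave 189 and 63. With 1 library left out, higher and lower calls ranged over 2268 to 2993 and 1688 to 2552 in males, 1368 to 2247 and 1530 to 2741 in females, 205 to 1152 and 48 to 1000 in the male minus female test, 899 to 2195 and 752 to 2103 between S64F/+ sexes, and 60 to 460 and 11 to 183 between WT sexes. The cause was not tested, other than that such fits hold fewer samples.

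Log2 fold changes that changed sign belonged to genes without a call. With 1 library left out, males ranged from -0.26 to 0.89 for Pf4 (0.00 in DESeq2), 0.00 to 0.44 for Fcer1g and -0.07 to 0.35 for Fcgr1, and females from -0.20 to 0.21 for Cx3cr1, -0.15 to 0.30 for Cybb, -0.31 to 1.38 for Clec10a and -0.18 to 1.71 for Msr1.

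Same-numbered libraries of a sex were not taken as pairs, since the labels do not say what the numbers mark and not every pair correlated by over 0.1. Their deviations correlated from -0.315 to 0.338 in males and, all positive, from 0.078 to 0.460 in females, and 1 of 4 S64F/+ and 1 of 4 WT males, and 1 of 5 and 2 of 5 females, correlated best with their own number. With the replicate block, Cd53 missed the threshold in males (edgeR adjusted p 0.0702). In females Ptprc (0.0912), Laptm5 (0.0923), Cd53 (0.108), Lyz2 (0.304), Cd14 (0.0664) and Cd209d (0.0503) missed it and Mrc1 passed (0.0425). The male minus female calls of Csf1r (0.0894) and Cd68 (0.0635) were lost, and between S64F/+ sexes Cd68 (0.0554), Mrc1 (0.0518) and Clec10a (0.0576) missed the threshold, leaving 10 genes.

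Among female genotype calls, Ptprc (0.0796), Laptm5 (0.0652) and Cd53 (0.0581) missed the threshold with plain library-size scaling, Lyz2 (0.0761) and Pdcd1lg2 (0.0623) without the filter, and Pdcd1lg2 (0.0524) in DESeq2. DESeq2 added Aif1 (0.0454), Pf4 (0.034), Mrc1 (0.0181) and Cd209a (0.0432). The values in parentheses are adjusted p.

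Depth limits Cd80 most, with few counts in every group, and Pdcd1lg2, Cd209d and Gpnmb, with few counts outside male S64F/+ libraries. Clec10a and Cd209a were also low in WT, at means of 0.133 and 0.103 CPM in males and 0.187 and 0.115 CPM in females.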
